A study of Bos taurus and Cervus elaphus with 24 samples.

Results

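The transcripts described here encode proteins of the centrosome, led by CNTROB (centrobin) and CEP192, with CEP152, CEP164, CEP250, CEP135, PCNT, NIN, PLK4 and CETN3. They were measured in blood that cattle and deer gave in the dry period and again at peak lactation. A probe was included where the array's own gene name was one of these 10, which gave 16 probes of the 43653 non-control probes on the array. Only 7 of the 10 genes had a probe under that name: PLK4 had 4, CEP135 and CEP164 had 3 each, CEP250 and CETN3 had 2 each, and CNTROB and CEP192 had 1 each. CEP152, PCNT and NIN had none. A further 11 probes that the files describe in words as CEP152, PCNT, NIN or CNTROB, but list under another name, were added after the files were seen and are given as "described" probes. CNTROB and CEP192 were chosen by measured values of these arrays: both were higher in Holstein-Friesian than in Polish Red blood in the dry period, and CNTROB was also lower at peak lactation in Holstein-Friesian cattle. Values of those 2 comparisons are therefore a description for every one of these genes, with no test.

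The centrosome is a pair of centrioles, which are short barrels of microtubules, inside a cloud of protein that nucleates new microtubules. A daughter centriole grows beside each existing centriole once per cell cycle, so that a dividing cell has a spindle pole at each end, and in resting cells the older centriole can dock at the membrane and found a cilium. Most white cells in blood are resting, and their centrosome organises the microtubules used in migration and in contacts between immune cells. The roles given below are those described in human cells.

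The animals were 4 Holstein-Friesian cattle (HF), a dairy breed, 4 Polish Red cattle (PR), a native breed, and 4 deer (Cervus elaphus, the red deer). Each animal was bled in the dry period, when it gave no milk, and again at peak lactation, so that 6 groups of 4 arrays came from 12 animals. No age, treatment or allele is given for any group. Blood went into tubes that fix RNA at collection, although the labels call the source peripheral blood nuclear cells. On all 24 arrays Cy5 carried the animal's RNA and Cy3 a reference pooled from 20 cattle outside the groups, and values are log2 ratios of Cy5 over Cy3, where 0 means a signal equal to the pool's. All probes are bovine, so that in deer a difference in sequence and a difference in expression cannot be told apart. Every deer array also lay on slides that held no cattle, so that species and slide cannot be told apart.

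The first PR dry array had a median Cy5 signal of 2038 against 109 to 255 on the other arrays, and 703 spots called outliers against at most 75 elsewhere. Spike-in controls correlated with their designed ratios at 0.33 on that PR array, at 0.17 to 0.40 on all 4 arrays from HF animals 2 and 3, and at 0.899 or more elsewhere. The log2 ratios of deer lactation arrays 2 and 4 had an SD of 0.52 and 0.66 over all probes, against 0.80 to 0.85 on the other deer arrays. For the representative probes, values without some of these arrays stand beside the differences that leaving them out moved most.

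The array has 60-base probes, and where a printed stretch has 30 bases it is the first part of its probe. The sequences below are those of probes that carry a result, because probes of the same gene differed for CNTROB, PLK4, CEP152, CEP250 and CEP164. CNTROB and CEP192 are the genes chosen by measured values, and the described CNTROB probe went another way. PLK4 and CEP152 have 1 probe each that moved with CNTROB, and CEP250, CETN3 and CEP164 carry the deer results. CEP192 had only 1 probe, and both CETN3 probes gave like deer differences. Positions are on the UMD 3.1 cattle assembly as the files give them, with the strand, and exon and untranslated region assignments were not made. The CEP164 position spans 9354 bases for 60 bases of probe, so that probe crosses at least one intron. Each is written 5′ to 3′ in lower case with no part marked.
CNTROB, chr19:28238345-28238404, plus strand: aacaaaacagtctgtggctagatttccaaa
CNTROB, described probe, chr19:28224375-28224434, plus strand: aaccaggagttcccacctctgctgtctcca
CEP192, chr24:43734266-43734325, plus strand: gatttgttgctttgagaagctaatacctga
PLK4, chr17:30185894-30185953, minus strand: tattgttatccctactttagacatgttaag
CEP152, described probe, chr10:61752009-61752068, plus strand: ctacttgagatattaatgttgccttcatct
CEP250, chr13:65395490-65395549, plus strand: gctgatggaactgcgtgaaactgtggcatc
CETN3, chr7:92290526-92290585, minus strand: caaggataaacactaagaatgttgcagttg
CEP164, chr15:28443670-28453023, plus strand: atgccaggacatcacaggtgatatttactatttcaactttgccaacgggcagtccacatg

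CNTROB encodes centrobin, which sits on the daughter centriole, binds tubulin and is needed for the centriole to lengthen. In HF dry blood its log2 ratios were 0.43, 0.71, 0.74 and 0.48, and at peak lactation the same animals gave 0.17, 0.072, 0.29 and 0.14. Every HF animal was lower at peak lactation, and the groups did not overlap. In PR the dry values were -0.026, -0.056, -0.090 and -0.29 and the lactation values -0.35, -0.14, -0.24 and -0.22, so that all 8 PR arrays lay below all 8 HF arrays. Deer gave -0.67, -0.29, -0.28 and -0.61 in the dry period and -0.45, -0.17, -0.33 and -0.28 at peak lactation. The plot of CNTROB and CEP192 on each array shows, for the probe named for each gene, the HF dry arrays on top and the deer dry arrays with the lowest mean.

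**Figure D1:**
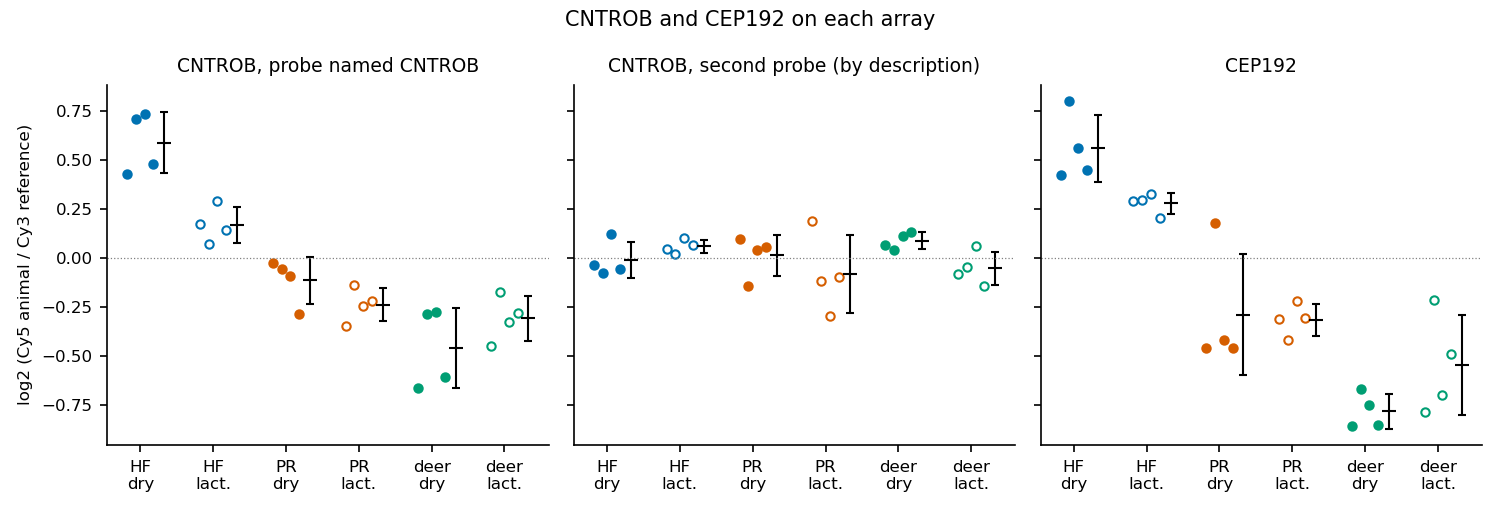
Log2 ratio of the animal (Cy5) over the pooled cattle reference (Cy3), 1 point per array in each of the 6 groups, with the mean and SD of 4 arrays. Panels show the CNTROB probe, the described CNTROB probe and the CEP192 probe. In the outer panels HF dry arrays are highest (means 0.59 and 0.56) and all deer arrays lie below 0. PR arrays there lie below 0 except 1 PR dry array for CEP192. The described CNTROB probe, in the middle panel, does not show this: its HF dry mean is -0.010, and all deer dry arrays lie above 0.

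The order of the CNTROB group means, with the SD of 4 arrays, was HF dry (0.59 ± 0.16), HF lactation (0.17 ± 0.092), PR dry (-0.11 ± 0.12), PR lactation (-0.24 ± 0.086), deer lactation (-0.31 ± 0.11) and deer dry (-0.46 ± 0.21). The first 3 of these groups did not overlap one another, while PR dry and PR lactation, PR lactation and deer lactation, and deer lactation and deer dry overlapped. As a description, HF exceeded PR in the dry period by 0.71 (SE 0.10), and HF lactation lay below HF dry by 0.42 (difference -0.42, SE 0.10). In bulk blood, fewer cells of a type and less RNA per cell cannot be told apart.

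At peak lactation, which did not enter the comparison of breeds that chose the gene, CNTROB in HF exceeded PR by 0.41 (SE 0.10), or 1.33-fold, with an adjusted p of 0.0804 in limma, which missed the threshold of 0.05 over 32950 probes. The HF lactation arrays are also those of the lactation comparison that chose the gene, and the animals are those of the dry comparison. PR lactation differed from PR dry by -0.12 (SE 0.10, adjusted p 0.847, limma), with 1 of 4 animals higher, and deer lactation from deer dry by 0.15 (SE 0.10, adjusted p 0.634, limma), with 3 of 4 animals higher. Deer minus the mean of both breeds was -0.70 (SE 0.08) in the dry period, a description with no test, because that mean holds the HF and PR dry arrays that chose the gene. At peak lactation the difference was -0.28 (SE 0.08, adjusted p 0.00929, limma), a call that was lost without deer lactation array 1 (-0.23, adjusted p 0.0523, limma), and its cattle mean holds the HF lactation arrays that also entered the choice. Against the PR lactation arrays, which entered no comparison of the choice, the deer lactation arrays overlapped.

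CEP192 encodes the scaffold that gathers pericentriolar material and recruits PLK4 to the centriole. Its HF dry log2 ratios were 0.43, 0.80, 0.56 and 0.45, and the HF lactation values were 0.29, 0.30, 0.33 and 0.20. PR dry arrays gave -0.46, 0.18, -0.42 and -0.46, and PR lactation arrays -0.31, -0.42, -0.22 and -0.31. The second PR dry array stood alone above 0, yet still below every HF array. It was the PR array that shared a slide with both arrays of HF animal 4, and 0.85 (SE 0.13) for HF over PR in the dry period became 1.01 without it.

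In deer CEP192 was -0.86, -0.67, -0.75 and -0.85 in the dry period and -0.79, -0.22, -0.70 and -0.49 at peak lactation, so that all 4 deer dry arrays lay below every cattle array. The group means ran from HF dry (0.56 ± 0.17) through HF lactation (0.28 ± 0.053), PR dry (-0.29 ± 0.31), PR lactation (-0.32 ± 0.082) and deer lactation (-0.55 ± 0.25) to deer dry (-0.78 ± 0.089). PR dry and PR lactation overlapped, as did PR lactation and deer lactation, and deer lactation and deer dry. HF lactation lay below HF dry in all 4 animals by a mean of 0.28 (difference -0.28, SE 0.13).

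At peak lactation CEP192 in HF exceeded PR by 0.60 (SE 0.13), or 1.51-fold, and the 2 groups did not overlap. Its adjusted p of 0.0674 in limma missed the threshold. PR lactation differed from PR dry by -0.026 (SE 0.13, adjusted p 0.991, limma), and by 0.13 without PR dry array 2 (adjusted p 0.741, limma), and deer lactation from deer dry by 0.24 (SE 0.13, adjusted p 0.574, limma), with all 4 deer higher. Without deer lactation array 2 the deer lactation difference was 0.12 (adjusted p 0.98, limma), and with array weights it was 0.32 and was called. That call rests mostly on deer lactation array 4, which had a weight of 9.28 against 0.36 to 1.12 for the other deer lactation arrays. Deer minus the mean of both breeds was -0.92 (SE 0.11) in the dry period, again a description because the HF and PR dry arrays chose the gene. At peak lactation it was -0.53 (SE 0.11, adjusted p 0.000426, limma), and this call held in every alternative run, with values of -0.91 to -0.45.

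Within slides the comparisons had few arrays. HF and PR dry arrays met on 1 slide with 1 array of each, where HF exceeded PR by 0.54 for CNTROB and 0.28 for CEP192, and HF and PR lactation arrays met on none. Counted in order, HF arrays were scanned on days 1 to 3, and PR arrays on days 4 and 5 except PR dry array 2 (day 3). Apart from that array, breed cannot be told apart from slide and scan day, and at peak lactation not at all. Each HF animal's arrays shared a slide, so that its lactation difference is a within-slide value. For CNTROB these were -0.26, -0.64, -0.44 and -0.34, and for CEP192 -0.14, -0.50, -0.23 and -0.25. Leaving out HF animals 2 and 3 gave an HF minus PR dry difference of 0.57 for CNTROB and 0.73 for CEP192, and an HF lactation difference of -0.30 and -0.19.

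The described CNTROB probe, at another place in the gene, did not show the HF values. Its log2 ratios were -0.036, -0.075, 0.12 and -0.055 in HF dry blood and 0.097, -0.14, 0.041 and 0.057 in PR dry blood, and these overlap. At peak lactation HF gave 0.044, 0.022, 0.10 and 0.069 and PR 0.19, -0.12, -0.30 and -0.099. Its HF minus PR difference was -0.024 (SE 0.081) in the dry period, given as a description, and 0.14 at peak lactation (SE 0.08, adjusted p 0.428, limma). It also did not show the deer values: deer differed from cattle by 0.088 in the dry period (SE 0.070, adjusted p 0.296, limma) and by -0.042 at peak lactation (adjusted p 0.652, limma). Both probes were well above background on all 24 arrays. The name of the first probe comes from the array's gene name column and that of the second only from its description, so which transcripts each measures was not tested.

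**Figure D2:**
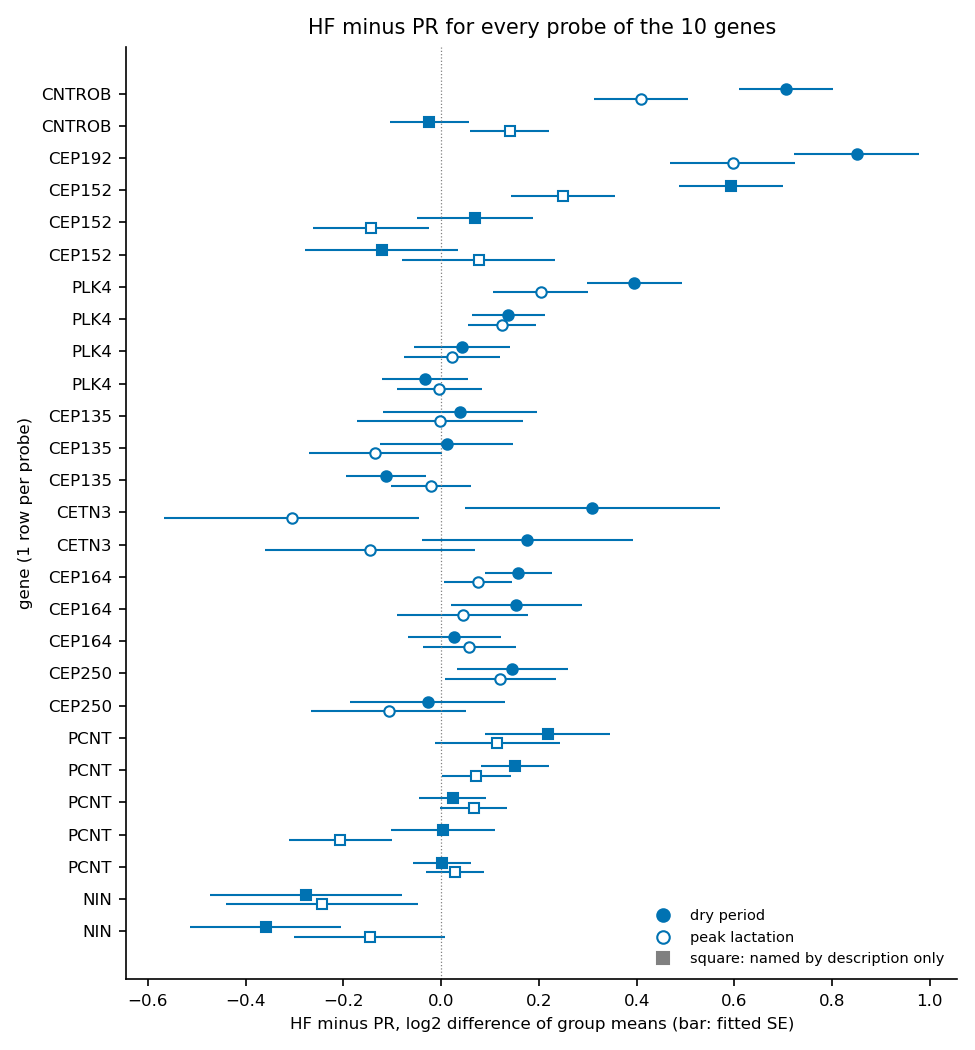
HF minus PR log2 difference (bar, fitted SE) for every probe of the genes in each state (filled, dry period; open, peak lactation), with probes named in the gene name column apart from those known by description. CNTROB (0.71 and 0.41) and CEP192 (0.85 and 0.60) lie farthest to the right in each state, and the described CNTROB probe lies near 0.

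PLK4 is the kinase that starts centriole duplication, and the most intense of its 4 probes stood for it. Its log2 ratios were 0.27, 0.39, 0.19 and 0.29 in HF dry blood and 0.11, -0.071, 0.23 and 0.069 in HF lactation. PR dry arrays gave -0.049, 0.011, -0.16 and -0.25, all below every HF dry array, and PR lactation arrays -0.20, -0.10, -0.0026 and -0.17. As a description, HF exceeded PR in the dry period by 0.39 (SE 0.10) and HF lactation differed from HF dry by -0.20. At peak lactation the HF minus PR difference was 0.20 (SE 0.10, adjusted p 0.329, limma). The other 3 PLK4 probes differed between HF and PR in the dry period by 0.043, 0.14 and -0.033, and the second of these was too dim to be tested there.

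In deer PLK4 was -0.032, 0.20, 0.34 and 0.0014 in the dry period and 0.54, 0.076, 0.35 and 0.26 at peak lactation. Deer exceeded cattle at peak lactation by 0.32 (SE 0.08, adjusted p 0.00294, limma), and in the dry period the difference was 0.042 (SE 0.08, adjusted p 0.694, limma). At peak lactation 2 of the other PLK4 probes also exceeded cattle, by 0.25 and 0.19 (adjusted p 0.0166 and 0.0115, limma), and the last differed by 0.083 (adjusted p 0.389, limma). That last probe was the only one of PLK4 called in the dry period, at 0.18 (adjusted p 0.0435, limma). The representative probe's difference at peak lactation was 1.44 with Agilent's processed ratio. The sign was opposite to that of the probes named CNTROB and CEP192, which lay below the mean of both breeds in deer. For both of those probes the deer and PR lactation arrays overlapped, and the described CNTROB probe did not lie below cattle.

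CEP152 is the ring protein that, with CEP192, brings PLK4 to the centriole. The described CEP152 probe shown above gave 0.34, 0.46, 0.39 and 0.56 in HF dry blood, 0.31, 0.32, 0.43 and 0.034 in HF lactation, -0.015, -0.031, -0.34 and -0.23 in PR dry and 0.13, -0.19, 0.14 and 0.013 in PR lactation. Its HF and PR dry arrays did not overlap, with a difference of 0.59 (SE 0.11), and at peak lactation the difference was 0.25 (SE 0.11, adjusted p 0.276, limma). Deer lay below the mean of both breeds in the dry period by 0.25 (difference -0.25, adjusted p 0.0232, limma), and at peak lactation the difference was -0.16 (adjusted p 0.153, limma). Dry group means were -0.11 in deer, -0.15 in PR and 0.44 in HF, so that deer lay below HF but overlapped PR. A second CEP152 probe gave 0.069 for HF minus PR in the dry period and -0.29 for deer minus cattle (adjusted p 0.0187, limma), and the third was too dim to be tested.

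CEP135 belongs to the cartwheel from which a new centriole is built. In the 4 cattle groups its representative probe spread from -0.28 to 0.38 with no order by breed, and HF minus PR was 0.011 when dry and -0.13 at peak lactation (adjusted p 0.703, limma), or 0.034 without HF animals 2 and 3. The HF lactation difference was -0.024, and 0.21 without those animals. Deer gave 0.28, 0.31, 0.47 and 0.12 in the dry period and 0.45, 0.26, 0.31 and 0.28 at peak lactation. Deer exceeded cattle in the dry period by 0.28 (SE 0.12, adjusted p 0.0476, limma), a call that was lost in 10 of 23 alternatives, and at peak lactation by 0.26 (SE 0.12, adjusted p 0.0732, limma). Another CEP135 probe went the opposite way in deer, at -0.52 or lower on all 4 deer dry arrays against cattle values of -0.15 to 0.22. That probe was well above background on 1 of 4 deer dry arrays and on none of the deer lactation arrays, so its lactation difference is known only as a bound. The remaining CEP135 probe gave 0.066 and 0.025 (adjusted p 0.442 and 0.796, limma).

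CETN3 encodes centrin 3, a calcium-binding protein in the lumen of the centriole. Its representative probe gave 0.15, 0.73, 0.0071 and 0.058 in HF dry blood and -0.19, 0.31, 0.075 and 0.035 in PR dry blood, which overlap. At peak lactation HF gave 0.11, 0.24, 0.58 and -0.049 and PR -0.013, 0.55, 0.55 and 0.39, a difference of -0.15 (adjusted p 0.819, limma) that was -0.34 without HF animals 2 and 3. In the dry period HF minus PR was 0.18, and 0.045 without those animals or 0.094 without PR dry array 1. Deer gave 1.00, 1.27, 1.41 and 0.23 in the dry period and 1.48, 1.26, 1.43 and 0.95 at peak lactation. Deer dry array 4 lay within the range of the cattle arrays, and the 4 deer lactation arrays lay above all cattle arrays. Deer exceeded cattle by 0.83 in the dry period (SE 0.19, adjusted p 0.000645, limma) and by 0.99 at peak lactation (SE 0.19, adjusted p 0.000155, limma). The second CETN3 probe gave 1.08 and 1.05 (adjusted p 0.000326 and 0.000539, limma). In PR the second probe was 0.53 higher at peak lactation (p 0.0542 in limma, adjusted p 0.797) and the first 0.31 higher (adjusted p 0.829, limma), with all 4 animals higher by both probes.

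CEP164 builds the distal appendages by which the older centriole docks at the membrane. Its representative probe gave 0.25, 0.12, 0.24 and 0.35 in HF dry blood and 0.19, -0.23, -0.47 and 0.14 in HF lactation. PR arrays gave 0.14, -0.042, 0.036 and 0.21 in the dry period and -0.15, -0.11, -0.26 and -0.038 at peak lactation, and the breeds overlapped in each state. Deer gave 0.75, 0.87, 1.22 and 0.68 in the dry period and 0.47, 0.54, 0.95 and 0.59 at peak lactation, all above every cattle array. By this probe all 12 animals were lower at peak lactation: the HF difference was -0.33, a description that became -0.14 without HF animals 2 and 3, the PR difference -0.22 (SE 0.13, adjusted p 0.807, limma) and the deer difference -0.25 (SE 0.13, adjusted p 0.574, limma). Deer exceeded cattle by 0.72 in the dry period (SE 0.12, adjusted p 1.84e-05, limma) and by 0.75 at peak lactation (SE 0.12, adjusted p 1.46e-05, limma). HF minus PR at peak lactation was 0.044 (adjusted p 0.926, limma), and 0.30 without HF animals 2 and 3 (adjusted p 0.639, limma). The second CEP164 probe gave lactation differences of -0.13 in HF, -0.046 in PR and 0.027 in deer, with 0, 1 and 2 of 4 animals higher, and it was too dim to be tested in PR. It also gave smaller deer differences of 0.10 (adjusted p 0.177, limma) and 0.21 (adjusted p 0.0057, limma), and the third was too dim to be tested.

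CEP250, also called C-Nap1, anchors the linker that holds the centrioles of a pair together. Its representative probe spread from -0.14 to 0.41 over all 16 cattle arrays, with HF minus PR at -0.027 when dry and -0.11 at peak lactation (adjusted p 0.818, limma). The HF lactation difference was -0.15, and -0.25 without HF animals 2 and 3. In deer it was 1.18, 1.37, 1.09 and 1.14 in the dry period, all far above cattle. At peak lactation deer gave 1.09, 0.32, 1.29 and 0.47, with animals 2 and 4 changing from the dry period by -1.04 and -0.66. Those are the deer arrays whose ratios had the smaller SD over all probes, and the part of that in this result was not tested.

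Deer exceeded cattle for CEP250 by 1.08 in the dry period (SE 0.14, 2.11-fold, adjusted p 8.72e-07, limma) and by 0.78 at peak lactation (SE 0.14, adjusted p 6.47e-05, limma). The deer lactation difference of -0.40 (SE 0.16) had an unadjusted p of 0.0201 and an adjusted p of 0.458 in limma, and was -0.24 without deer lactation array 2 (adjusted p 0.98, limma) and -0.68 with array weights (adjusted p 0.0011, limma). Those weights gave deer lactation array 4 a weight of 9.28, against 0.36 to 1.12 for the other deer lactation arrays. The weighted value therefore rests mostly on that array. The differences from cattle were larger with Agilent's processed ratio, at 2.22 and 2.16, and that at peak lactation was 0.51 with array weights, all of them called. The second CEP250 probe did not show the deer values: deer differed from cattle by -0.14 and -0.094 (adjusted p 0.219 and 0.456, limma), with dry values of -0.17, 0.052, -0.30 and -0.091.

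**Figure D3:**
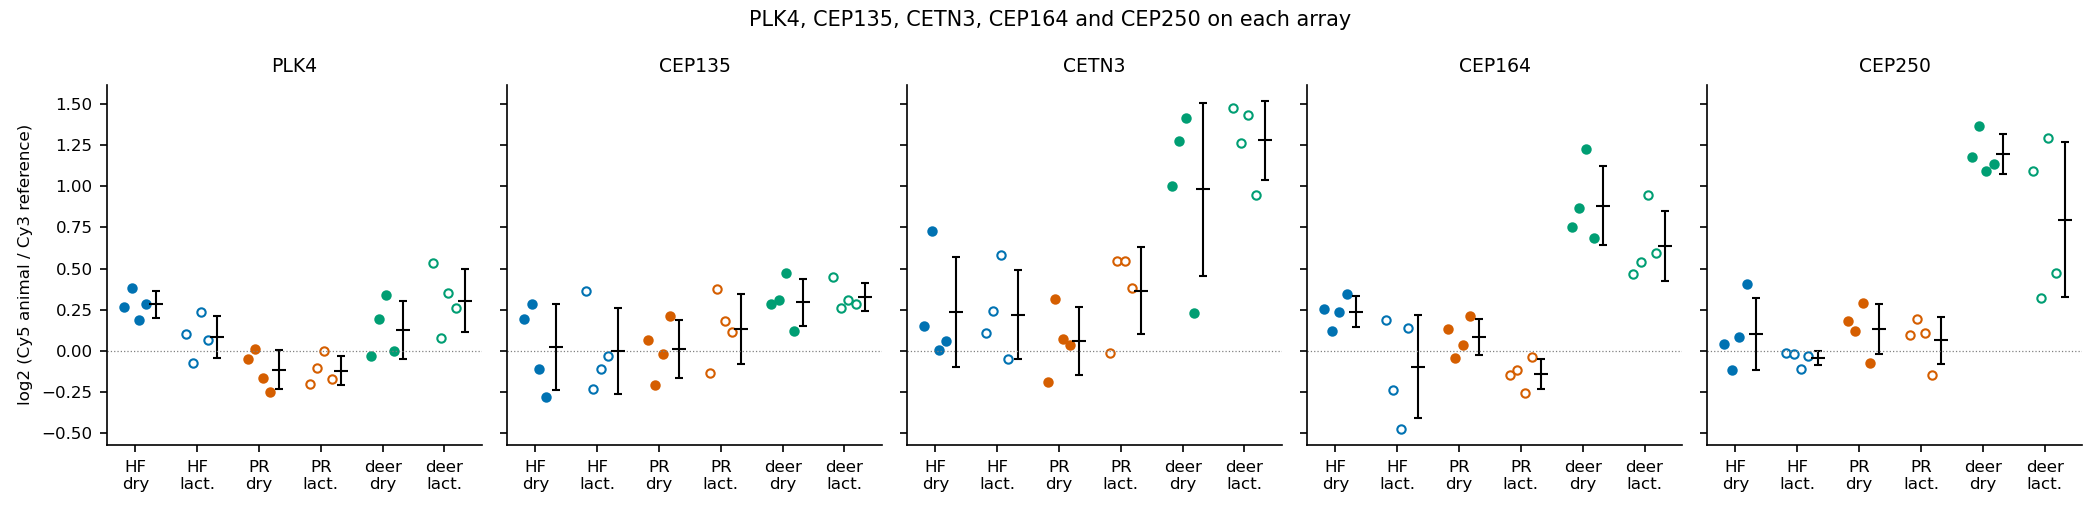
Log2 ratio of animal over reference for the representative probes of PLK4, CEP135, CETN3, CEP164 and CEP250, 1 point per array with the mean and SD of 4 arrays. PLK4 orders the cattle arrays by breed in the dry period, while CETN3, CEP164 and CEP250 separate most deer arrays from cattle, with deer dry means of 0.98, 0.88 and 1.19.

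NIN (ninein) anchors microtubules at the subdistal appendages, and PCNT (pericentrin) is a main scaffold of the pericentriolar material. Both were measured only by described probes. The 2 NIN probes went against CNTROB: the first gave -0.27, -0.41, -0.21 and -0.83 in HF dry blood and -0.13, 0.40, -0.26 and -0.038 in HF lactation, and the second -0.46, -0.61, -0.21 and -0.67 and then -0.24, 0.026, -0.14 and -0.0097. The HF lactation differences were 0.43 and 0.39, with 3 and 4 of 4 animals higher. PR animals spread widely by the first probe, from -0.63 to 0.27 in the dry period and from 0.064 to 0.52 at peak lactation, a difference of 0.39 (adjusted p 0.797, limma). In deer NIN exceeded cattle in the dry period by 0.43 and 0.32 (adjusted p 0.037 and 0.0483, limma), and at peak lactation the differences were -0.26 and -0.12 (adjusted p 0.216 and 0.482, limma). Of 5 PCNT probes, 1 separated HF from PR in the dry period, with 0.088, 0.35, 0.092 and 0.21 against 0.027, -0.030, 0.071 and -0.20, a difference of 0.22. The other 3 tested PCNT probes gave 0.15, 0.023 and 0.0033, and the fifth was too dim to be tested.

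Counted over the probes named for these genes, 11 of 14 tested were higher in HF than in PR dry blood, against 51.7% of all tested probes, with a median difference of 0.15 against 0.0083. CNTROB, CEP192 and the representative PLK4 probe did not overlap between the groups, where 9.03% of all probes did not, and 3.17% of all probes had an adjusted p under 0.05. These counts are those of the comparison that chose the genes, and nothing is read from them. In HF lactation 2 of 15 tested probes were higher, against 47.2% of all probes, and CNTROB and CEP192 did not overlap, where 6.41% of all probes did not. In that comparison 0.00906% of all probes were called by limma.

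At peak lactation HF and PR did not overlap for CNTROB, CEP192 and 1 PLK4 probe, which is 3 of 15 tested, against 11.9% of all probes. That PLK4 probe was not the representative one. It was tested through its signal in HF, being well above background on 4 HF but only 1 PR lactation array. Nothing is therefore read from the count of 3. None of the 15 was called by limma, where 0.0121% of all probes were, and 3 had an unadjusted p under 0.05, where 15% of all probes did. By unadjusted p CEP192 ranked 64th and CNTROB 151st of 32950 probes. The dry arrays of the same animals chose both genes, so nothing is read from the ranks. In PR lactation none of 12 tested probes was called by limma or had an unadjusted p under 0.05, where 0% and 6.04% of all probes were. In deer lactation none of 14 was called by limma and 1, the CEP250 probe, had an unadjusted p under 0.05, where 0.00599% and 9.54% were. No probe of these genes was without overlap in either comparison, where 2.18% and 4.38% of all probes were. With Tukey's comparison, the test the series text names, no probe of these genes passed in PR or deer lactation.

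**Figure D4:**
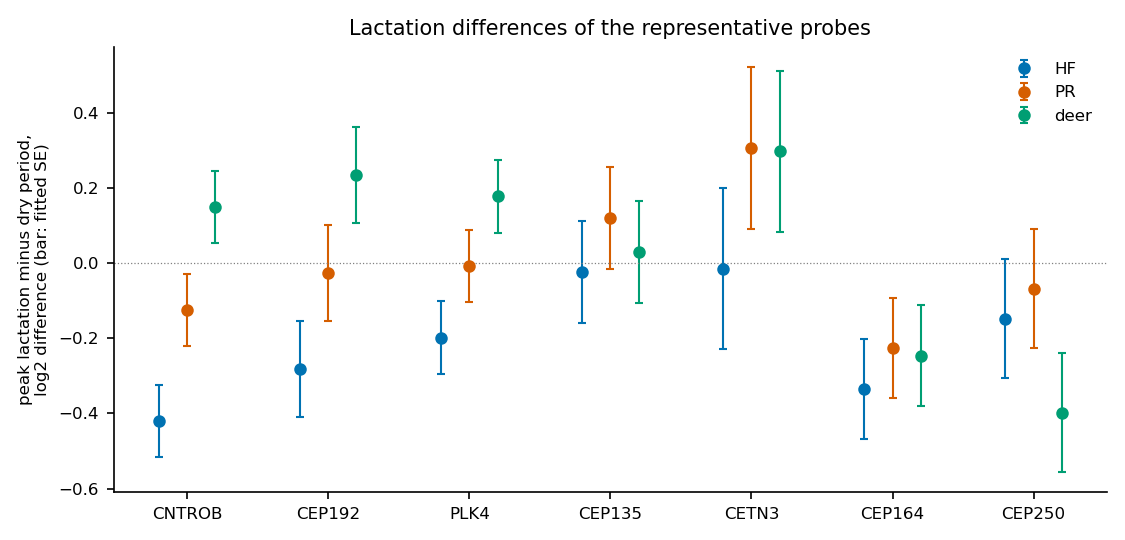
Peak lactation minus dry period, log2 difference with the fitted SE, for the representative probe of each of the 7 genes in HF, PR and deer. CNTROB runs from -0.42 in HF through -0.12 in PR to 0.15 in deer, and CEP164 is below 0 in all of them.

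The lactation effects were also set against one another. The CNTROB effect in HF minus that in PR was -0.30, and the deer effect exceeded the mean cattle effect by 0.42 for CNTROB and by 0.39 for CEP192. These differences hold the HF values that chose the genes and are a description with no test. Of all probes 0% were called on either difference of effects by limma, where 3.23% and 8.87% had an unadjusted p under 0.05, and no probe of the other genes was called.

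Between deer and cattle, 9 of 15 tested probes were called in the dry period, where 57.4% of all probes were, and 11 of 15 at peak lactation, where 49.3% were. Both counts hold CNTROB and CEP192, whose cattle arrays entered the choice, and the CEP135 probe that was tested through its signal in cattle and was mostly not above background in deer, so nothing is read from the counts. CETN3, CEP164 and CEP250 were higher in deer by their representative probes in both states. In the dry period 4 of 15 did not overlap, where 35.3% of all probes did not, and at peak lactation 6 of 15, where 29.3% did not.

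Likeness across arrays was measured by Spearman's correlation over the 16 cattle arrays, which share breed, state and slide, and is given as a description. With CNTROB the representative PLK4 probe reached 0.903, CEP192 0.85, a PCNT probe 0.774 and the described CEP152 probe 0.753, while the other CNTROB probe reached 0.141 and the NIN probes -0.679 and -0.597. With CEP192 the described CEP152 probe reached 0.894 and PLK4 0.853. The genes most like CNTROB among 12938 were SFXN2 (0.953), ASB3, UPF3B, RPAP1 and EAPP (0.918), and those most like CEP192 were PTCD3 (0.985), NUP107, DBR1, GBA2 and DONSON (0.974). Patterns like these were not rare: 249 of the 12938 genes (1.92%) reached 0.8 with CNTROB and 745 (5.76%) with CEP192.

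Beyond these 10 genes, 99 other centrosome genes had been listed, of which 80 had a probe. The list was made with earlier results of these data known. HF against PR in the dry period and HF lactation are also the comparisons that chose CNTROB or CEP192. Counts and calls of listed genes in those comparisons are therefore a description, and nothing is read from them. In HF against PR dry blood 50 of 78 tested were higher, with a median of 0.16 against 0.0083 over all probes, and 13 were called higher and 0 lower by limma, where 2.75% of all probes were called higher and 0.428% lower. The largest of those called were TUBGCP5 (1.08, adjusted p 0.0155) and TUBGCP3 (0.86, adjusted p 0.0185), members of the gamma-tubulin complexes that nucleate microtubules, CEP95 (0.92, adjusted p 0.0249) and FOPNL (0.85, adjusted p 0.0304), which acts in cilium formation. CROCC, the rootlet protein, differed by 1.05 and was not called (adjusted p 0.0647). HERC2, a ubiquitin ligase, was higher by 0.81 (adjusted p 0.0111) and CTNNB1, beta-catenin, which is best known for adhesion and Wnt signalling, by 0.81 (adjusted p 0.0307).

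By role, 3 of 18 centriole assembly genes were called higher (CENPJ at 0.62, which controls centriole length, SPICE1 at 0.38 and STIL at 0.31, a partner of PLK4 in duplication). So were 3 of 26 pericentriolar and gamma-tubulin genes, 2 of 16 appendage genes, 1 of 5 linker genes and 4 of 13 satellite genes, the last including AZI1 (0.40) and CCDC66 (0.41). The count of 13 depended on single arrays: it was 0 without HF dry array 2, 0 without PR dry array 4, 0 without the arrays of HF animals 2 and 3, 6 without PR dry array 1 and 23 without PR dry array 2.

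**Figure D5:**
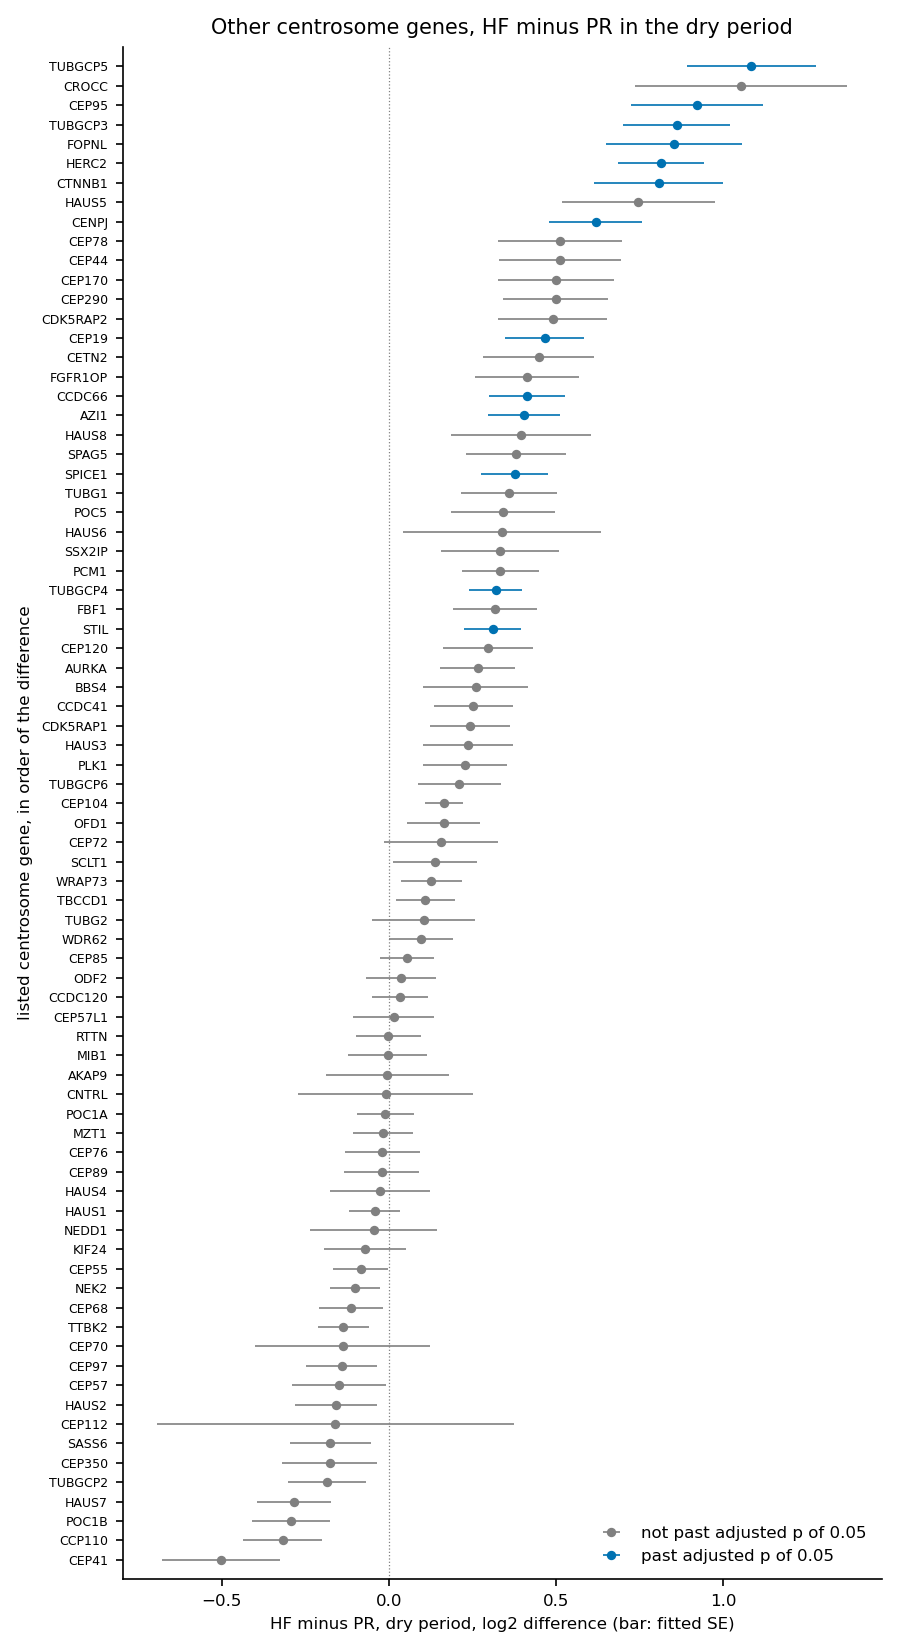
HF minus PR log2 difference in the dry period, with the fitted SE, for the 78 tested genes of the wider centrosome list, in order of the difference. The 13 genes past an adjusted p of 0.05, in blue, all lie above 0, from STIL at 0.31 to TUBGCP5 at 1.08. This comparison also chose CNTROB and CEP192, so the calls are a description.

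At peak lactation 47 of 77 listed genes were higher in HF than in PR, where 51.5% of all probes were, and 0 were called by limma, with 18 at an unadjusted p under 0.05, where 15% of all probes were. The largest differences were HERC2 (0.63, adjusted p 0.0583, limma), CROCC (0.58), CEP70 (-0.53) and CEP95 (0.48). In HF lactation 60 of 77 were lower and 17 higher, where 47.2% of all probes were higher, with a median of -0.082 and 0 called by limma (6 at an unadjusted p under 0.05, where 8.11% of all probes were), led by CROCC (-0.52), CNTRL (-0.48), TUBGCP5 (-0.45) and HAUS5 (-0.44). In PR lactation 47 of 78 were higher, where 56.1% of all probes were, with 0 called by limma (2 at an unadjusted p under 0.05, where 6.04% of all probes were) and CTNNB1 largest at 0.55. In deer lactation 54 of 75 were higher, where 52.4% of all probes were, with 0 called by limma (16 at an unadjusted p under 0.05, where 9.54% of all probes were), led by CEP70 (-0.76) and the spindle genes SPAG5 (0.62) and HAUS5 (0.60). Between deer and cattle 19 of 79 were called higher and 35 lower in the dry period, where 26.7% and 30.7% of all probes were. At peak lactation 20 were called higher and 28 lower, where 22.2% and 27.2% were, with HAUS5 (-3.50) and HAUS6 (-3.42), subunits of the augmin complex, farthest apart in the dry period.

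Markers of blood cell types moved with some of these values. The mean log2 ratio of 9 genes of cell division was 0.17 in HF dry blood (arrays from 0.059 to 0.38) and -0.20 in PR dry blood (-0.40 to -0.028), with 9 of 9 genes higher in HF and 2 called by limma. In deer the same list went from -0.36 in the dry period (-0.49 to -0.31) to 0.12 at peak lactation (-0.021 to 0.19), with 9 of 9 genes higher and 0 called. At peak lactation it was 0.17 in HF (-0.033 to 0.51) and -0.067 in PR (-0.21 to 0.17), with 7 of 9 genes higher in HF and 0 called. In HF it was 0.17 in both states, with 4 of 9 genes higher at peak lactation and 0 called. In PR lactation 8 of 9 genes were higher than in the dry period (median 0.11), 0 called.

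The B cell list had a mean of 0.36 in HF dry blood (0.067 to 0.57), 0.031 in PR dry blood (-0.55 to 0.28) and -0.071 in HF lactation (-0.24 to 0.10), with 8 of 9 genes higher in HF than PR in the dry period, 1 of them called by limma, and 9 of 9 lower in HF lactation, 0 called. The neutrophil list went in mean from -0.69 in HF dry blood (-1.14 to -0.25) to 0.19 at peak lactation (-0.40 to 1.04), with 11 of 12 genes higher and 0 called, and the monocyte list from -0.65 (-0.78 to -0.52) to -0.067 (-0.33 to 0.30), with 9 of 9 higher and 0 called. In HF lactation all 12 T cell genes and 9 of 10 genes of NK and cytotoxic cells were lower, 0 called. All 7 tested platelet genes were lower there and all 7 tested erythroid genes higher, 0 called. In PR lactation 8 of 9 monocyte genes (median 0.54) and 9 of 12 neutrophil genes (median 0.37) were higher, 0 called. In deer lactation 9 of 12 neutrophil, 7 of 8 tested erythroid and 6 of 7 platelet genes were lower, 0 called. There 5 of 9 monocyte, 5 of 9 B cell, 7 of 12 T cell and 6 of 10 NK and cytotoxic genes were higher, 0 called. In the dry period 11 of 12 T cell genes and 9 of 10 NK and cytotoxic genes were higher in HF than in PR, 0 called. Of the neutrophil genes 10 of 12 were lower in HF there, 0 called. Between HF and PR at peak lactation 10 of 12 neutrophil genes (median 0.63) and 8 of 9 monocyte genes (median 0.37) were higher in HF, 0 called. At least 11 of the 12 neutrophil genes and all 9 B cell and 9 monocyte genes were above background on at least 3 arrays of each group. The part of these markers in the centrosome values was not tested.

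The authors' deposited tables hold 1 of the 16 probes. CNTROB is among the 437 probes of the HF table, with normalized log2 values in the authors' deposited table of 0.602, 0.854, 0.915 and 0.734 in the dry period and 0.324, 0.190, 0.435 and 0.264 at peak lactation. The authors' PR dry values were 0.262, 0.031, 0 and -0.277. Unlike in the values above, PR dry array 1 lay above HF lactation array 2. Deer dry arrays 2 and 3 lay above 0 in the authors' values, at 0.148 and 0.065. None of the probes is among the 158 of the PR table or the 576 of the deer table.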

How the data were processed

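Blood RNA of 12 animals was measured on 24 two-colour Agilent arrays, 4 in each of 6 groups taken from the labels, and the subject numbers were read as animals because the series text says that each animal was bled in both states. Per the file headers, each deposited array file lists spot intensity (mean signal and local background in both channels) and a log10 ratio of processed Cy5 over Cy3. Normalized log2 ratios stand in the authors' 3 deposited tables, for probes picked in GeneSpring by a one-way test with Tukey's comparison, per the series text. How they were normalized is not given in the sources used here. Feature Extraction is 10.7.3.1 per the submitters' processing notes and 10.10.1.1 per the file headers.

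Mean signals were corrected with normexp (offset 50) against median local background and adjusted by loess within each array, with 1417 control spots at weight 0, in limma 3.58.1 (R 4.3.3, statmod 1.5.0 and data.table in version 1.17.8). Outlier spots were dropped, which removed 2 values of these genes' probes: a CEP135 probe on HF lactation array 3 and a PLK4 probe on PR dry array 1. A probe was tested where at least 3 of 4 arrays of a compared group had Cy5 well above background. The model had 6 group means over 24 arrays, and p-values were adjusted by Benjamini-Hochberg over all probes tested, with a threshold of 0.05. The script was tested on simulated data. Precision is limited by 4 arrays per group. The p-values measure the spread of arrays within groups, which holds differences between animals, slides and arrays together. They do not use the pairing of an animal's dry and lactation arrays.

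The gene was represented by its probe of highest mean intensity. Named beside the 10 genes are, from the wider centrosome list, genes past the threshold and up to 4 with the largest difference in each comparison (of those between deer and cattle only the largest are given), and the 5 genes most like CNTROB and CEP192; CENPJ, SPICE1, STIL, AZI1, CCDC66, HERC2 and CTNNB1 were past the threshold in HF against PR. The genes and lists were chosen with earlier results of these data known. For CNTROB and CEP192, deer minus cattle in the dry period and the differences of lactation effects had been listed as tests, and are given with no p because they hold arrays that chose these genes. PR lactation minus PR dry was tested, and its PR dry arrays also entered the choice.

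As to pairing, deviations of an animal's 2 arrays correlated over 0.1 for all 4 HF animals, all 4 deer and 2 of 4 PR animals. The main model has no animal term, as the series text describes none, and a fit with the animal as a block was an alternative. Other alternatives were Agilent's processed ratio, no background subtraction, scaling between arrays, Cy5 alone, no filter, slide or scan day as a random block, array weights, only the arrays compared, Tukey's comparison and leaving out arrays. Coordinates are those of the files on UMD 3.1. The figures come from matplotlib 3.10.9 under Python 3.11.15.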

Additional observations from a re-analysis of the deposited data

Results flagged for a closer look

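Of 42 groups of 4 arrays checked for a sample far from the others (7 genes in 6 groups), 1 stood out, and chance alone gives about 1 in 20. For CEP192 in PR dry blood, array 2 gave a log2 ratio of 0.18, while the next highest of the group was -0.42 and the lowest -0.46. This array lay on the slide that held both arrays of HF animal 4, whose CEP192 values were 0.45 when dry and 0.20 at peak lactation. For CNTROB the same array gave -0.056, within the range of the other PR dry arrays. The part of the slide in this value was not tested.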

How the results depend on the processing

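Counts of these genes' probes called in HF against PR at peak lactation were 0, and became 2 with no background subtraction, 1 with scan day as a random block (an alternative chosen after seeing the data), 2 with array weights, 2 in a fit of only the arrays compared, and 2 with Tukey's comparison, unadjusted or after Benjamini-Hochberg. The count of 0 in deer lactation became 3 with array weights, whose estimate did not fully converge and gave deer lactation array 4 a weight of 9.28. The median over the 16 probes moved from 0.14 to 0.29 for HF minus PR in the dry period and from -0.10 to -0.23 for HF lactation with Agilent's processed log ratio; the cause was not tested. Leaving out 1 array at a time gave 0 to 0 for HF minus PR at peak lactation, PR lactation and deer lactation, 7 to 9 and 8 to 12 for deer minus cattle (dry and lactation), and medians of 0.095 to 0.13 for HF minus PR in the dry period and -0.12 to -0.068 for HF lactation. With the animal as a replicate block the counts were 0, 0 and 0, then 9 and 11, and the medians 0.14 and -0.10, and the block changed the call of no representative probe. The CNTROB difference for HF minus PR at peak lactation ranged from 0.17 to 0.45 and was called in 5 of 21 alternatives, and that of CEP192 from 0.44 to 0.83, called in 6 of 21. The CNTROB deer difference at peak lactation was not called with Agilent's processed log ratio (-0.19, adjusted p 0.144, limma). The 13 listed genes called in HF against PR dry blood were 0 with Cy5 alone and in a fit of only the arrays compared, 6 with Agilent's processed log ratio, 8 with no filter and 24 with array weights, and in deer lactation array weights gave 30. The 1045 probes called over the array in that comparison ranged from 0 to 5329, and were 1 without HF dry array 2 and 4417 without PR dry array 2. Tukey's comparison was not run for deer against cattle, which is not a pairwise contrast. No called value changed sign. Uncalled values near 0 did: CNTROB in PR lactation went from -0.12 to 0.13 with Cy5 alone, CEP192 in PR lactation from -0.026 to at most 0.45 in 4 of 20 alternatives, PLK4 in PR lactation changed sign in 8 of 20, and CEP250 for HF minus PR in the dry period in 6 of 21. Agilent's processed log ratio raised the PLK4 difference of HF minus PR in the dry period from 0.39 to 1.15 and the CEP164 difference of deer minus cattle at peak lactation from 0.75 to 1.20, and Cy5 alone brought the CNTROB difference of deer minus cattle in the dry period from -0.70 to -0.45. Dim probes, of which 3 could not be tested anywhere, have the least signal to show a difference.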
